A study of Mus musculus with 12 samples.

Results

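The 10 genes followed here serve MHC class I antigen presentation: the heavy chains H2-K1 and H2-D1, the light chain B2m, the peptide transporter subunits Tap1 and Tap2, tapasin (Tapbp), the inducible proteasome subunits Psmb8, Psmb9 and Psmb10, and the transactivator Nlrc5. They were chosen by name for their place in this pathway, and all of them are among the 24454 gene IDs of the deposited table. RNA was sequenced from 3 mesenchymal mouse breast cancer cell lines, 48 hours after transfection with Dharmacon siRNA that either targeted Nrf2 (siNrf2) or was non-targeting (siCtl). PyMT-1099 LT and Py2T LT were labelled with the MMTV-PyMT strain and MT∆Ecad with the MMTV-Neu strain, all as cells of mammary gland tumours. MT∆Ecad is, by its name, an E-cadherin-deleted line, and the names of the other lines hold no such mark. Both transgenes use the MMTV promoter, which is active in mammary epithelium, to drive an oncogene. Each of the 6 groups of line and siRNA held 2 libraries, which the series text calls biological duplicates. Each line stands for a tumour model by itself, so the p-values measure the spread between cultures of these lines and not between tumours.

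MHC class I molecules show peptides from inside the cell to cytotoxic T cells. The proteasome cuts proteins into peptides, the transporter formed by Tap1 and Tap2 moves them into the endoplasmic reticulum, and tapasin holds an empty heavy chain and B2m at the transporter until a fitting peptide is bound. Under interferon-gamma, Psmb8, Psmb9 and Psmb10 take the places of the catalytic subunits Psmb5, Psmb6 and Psmb7 in newly made proteasomes, and Nlrc5 drives transcription of class I genes from a shared promoter module.

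Psmb9, Tap1, Psmb8 and Tap2 lie side by side on chromosome 17 of GRCm38.p6. Psmb9 (34182030 to 34187330, minus strand) and Tap1 (34187556 to 34197225, plus strand) point away from each other with 225 bp between them, and Psmb8 (34198195 to 34201454) and Tap2 (34204479 to 34216321) follow on the plus strand. Tapbp (33919478 to 33929290), H2-K1 (33996012 to 34000619, minus strand) and H2-D1 (35263094 to 35267497) are on the same chromosome. B2m is on chromosome 2 (122147687 to 122153082). Psmb10 (105935728 to 105938392, minus strand) and Nlrc5 (94434335 to 94527272) are on chromosome 8. The sequences below, from RefSeq on GRCm38.p6, are the 200 bases before a listed start of 3 of these genes and the 225 bases between Psmb9 and Tap1. H2-K1 has 2 listed starts, and its stretch precedes the inner one, so that it lies within the span given above. They are shown because the heavy chains share an arrangement of regulatory motifs and because Psmb9 and Tap1 share the stretch between them. Capitals mark every match, on either strand, to an IRF core (AANNGAAA), an NF-kB site (GGGNNTTCC), the X2 half-site of the class I module (TGACG) or a Y box (CCAAT).
H2-K1, chr17:34000348-34000547, minus strand: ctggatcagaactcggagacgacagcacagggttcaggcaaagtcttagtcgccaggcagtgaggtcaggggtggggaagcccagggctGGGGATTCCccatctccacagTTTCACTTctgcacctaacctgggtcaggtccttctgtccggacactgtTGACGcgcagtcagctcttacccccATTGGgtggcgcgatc
H2-D1, chr17:35262894-35263093, plus strand: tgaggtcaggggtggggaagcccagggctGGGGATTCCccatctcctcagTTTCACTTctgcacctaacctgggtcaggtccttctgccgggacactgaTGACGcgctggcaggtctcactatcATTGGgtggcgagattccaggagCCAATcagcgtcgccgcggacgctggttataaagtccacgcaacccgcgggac
B2m, chr2:122147487-122147686, plus strand: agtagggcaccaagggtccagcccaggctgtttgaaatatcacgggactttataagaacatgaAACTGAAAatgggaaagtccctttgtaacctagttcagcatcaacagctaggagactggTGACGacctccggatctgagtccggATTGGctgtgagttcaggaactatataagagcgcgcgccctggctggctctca
Psmb9 to Tap1, chr17:34187331-34187555, plus strand: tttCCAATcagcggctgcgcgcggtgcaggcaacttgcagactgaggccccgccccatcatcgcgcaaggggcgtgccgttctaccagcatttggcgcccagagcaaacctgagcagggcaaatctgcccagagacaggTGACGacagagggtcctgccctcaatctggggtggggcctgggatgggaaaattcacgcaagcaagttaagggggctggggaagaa

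In both heavy chain promoters the NF-kB match, the IRF match and the X2 half-site follow each other at the same spacing, 21 bases from the first base of the NF-kB match to that of the IRF match and 49 bases from there to the X2 half-site. Windows of 300 bases, from 250 before to 50 after the first listed start, were found for 8 of the 10 genes. An IRF core was in 3 of these 8 windows, against 24.16% of 27025 promoters of the same length. An NF-kB match was in 2 of 8 (5.72% of all promoters), an X2 half-site in 5 of 8 (21.02%) and a Y box in 6 of 8 (37.92%). The Psmb9 and Tap1 windows overlap, so their X2 half-site and Y box are the same ones, counted for each gene. The core of the antioxidant response element, to which Nrf2 binds (TGACNNNGC), was in 1 of 8, the H2-K1 window, where it shares a base with the X2 half-site, and in 12.47% of all promoters. The windows of Tapbp, Psmb8 and Psmb10 held none of the IRF, NF-kB or X2 letters, which says only that these letters are not in these windows.

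Depth and identity of the libraries were checked first. The libraries held 27088970 to 37070635 reads, so that 1 CPM, a count per 1000000 reads, stood for 27.1 to 37.1 reads, and 3 reads, the limit that a count of 0 allows, for at most 0.111 CPM. Nfe2l2, which encodes Nrf2, kept 25.2% of its siCtl level in siNrf2 libraries of MT∆Ecad, with values of 26.1% for PyMT-1099 LT and 26.8% for Py2T LT, and fell with limma adjusted p of at most 0.000897 in each line. Cdh1, the E-cadherin gene, averaged 0.477 CPM in siNrf2 and 0.393 CPM in siCtl libraries of MT∆Ecad, and 49.7 and 13.9 CPM in the siCtl libraries of PyMT-1099 LT and Py2T LT. Vim, the mesenchymal intermediate filament, lay between 1489 and 5534 CPM in all 12 libraries, but of the 8 mesenchymal markers Twist1 and Snai2 were at 0 in PyMT-1099 LT. Epithelial markers were uneven, with Krt8 at 770 to 2140 CPM, Krt5 at no more than 0.657 CPM and Epcam at 0 in PyMT-1099 LT. Of 3 endothelial markers, Cdh5 averaged 123 CPM in siNrf2 and 89.3 CPM in siCtl libraries of PyMT-1099 LT, while Pecam1 and Kdr were at most 0.205 CPM in any library. Of 8 leukocyte markers, Cd3e and Tyrobp were at 0 in all 12 libraries and Ptprc reached at most 0.0571 CPM. Cd68, however, lay between 1.59 and 6.25 CPM, and Lyz2 reached 1.23 CPM. In bulk RNA of this kind, a change in the share of cells that express a gene and a change in RNA per cell cannot be told apart.

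After Nrf2 knockdown, MT∆Ecad cells carried more RNA of most class I presentation genes, among them tapasin, the peptide transporter and the inducible proteasome subunits. Tapbp, Tap2 and Tap1 were 2.35-fold, 2.33-fold and 2.19-fold higher, the inducible proteasome subunits 1.86-fold to 3.12-fold higher, and H2-D1 and B2m 1.37-fold and 1.28-fold higher in siNrf2 than in siCtl libraries (ratios of mean CPM). In PyMT-1099 LT and Py2T LT none of the genes passed the test. Nfe2l2 fell to a similar share in all 3 lines, but from different levels. It averaged 208 CPM in siCtl and 52.4 CPM in siNrf2 libraries of MT∆Ecad. The same means were 113 and 29.5 CPM in PyMT-1099 LT, and 86.7 and 23.2 CPM in Py2T LT. The part of the knockdown size in the difference between lines was not tested. A gene was called with limma on log2(CPM + 1), with p-values adjusted over the 12502 genes that had at least 1 CPM in at least 2 libraries and a threshold of 0.05. Log2 fold changes are siNrf2 minus siCtl on that scale, which understates the changes of low genes.

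**Figure D1:**
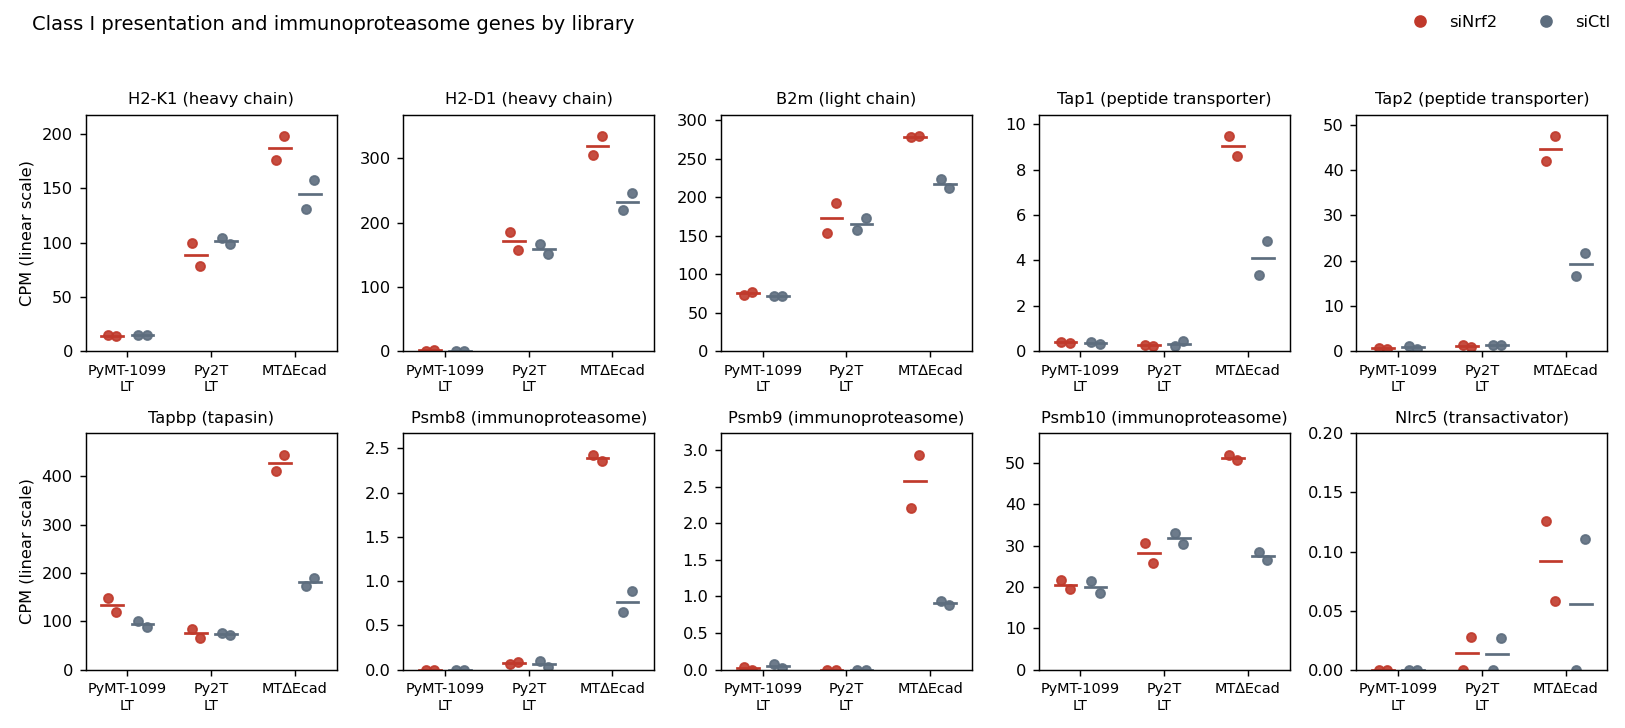
CPM of each of the 10 genes (linear scale from 0, a separate axis per gene) in the 12 libraries; points are libraries, short lines group means of 2, red siNrf2 and grey siCtl. In MT∆Ecad both siNrf2 points lie above both siCtl points for every gene except Nlrc5; H2-D1 in PyMT-1099 LT and Psmb9 in Py2T LT sit at or near 0.

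In MT∆Ecad, 8 of the 10 genes were called higher and 0 lower, while 8.89% of all tested genes were called higher and 8.42% lower. H2-K1 missed the threshold and Nlrc5 was too low to be tested. The median log2 fold change of the 9 tested members was 0.89, against 0 for all tested genes. Psmb8 and Psmb9 reached 1 CPM in no library other than the 2 siNrf2 libraries of MT∆Ecad, and Tap1 in none other than the 4 of MT∆Ecad, so these 3 entered the test through the line in which they were high. Psmb9 was itself the gene at the median, so the median of 0.89 depends on that filter. The other tested members ran from 0.36 (B2m) to 1.23 (Tapbp). With no filter on low values, which tests all 10 genes among 18265, 7 of the 10 were called higher and 0 lower. For 9 of the 10, both siNrf2 libraries lay above both siCtl libraries in MT∆Ecad, a pattern that 32.5% of all tested genes showed.

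Class I heavy chains present the peptide, and their changes were small. H2-K1 had 176 and 198 CPM in the siNrf2 libraries of MT∆Ecad, against 131 and 158 CPM in siCtl. The groups did not overlap, but the log2 fold change of 0.37 (SE 0.13, 95% interval 0.07 to 0.68) missed the threshold (limma adjusted p = 0.0906). The labels number the replicates, and the numbers were taken to pair the libraries of a line because those with the same number deviated together. With the replicate as a block H2-K1 was called (limma adjusted p = 0.00867). That fit called 5324 of all 12502 tested genes in MT∆Ecad, against 2164 without the block. H2-D1 had 305 and 334 CPM in siNrf2, against 219 and 246 CPM in siCtl, and rose by 0.46 (SE 0.11, limma adjusted p = 0.0216). This call of H2-D1 was lost when either siNrf2 library or siCtl replicate 1 of MT∆Ecad was left out, with limma adjusted p up to 0.171.

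B2m, the invariant light chain that every classical heavy chain needs at the cell surface, had 278 and 279 CPM in siNrf2 libraries of MT∆Ecad, against 224 and 211 CPM in siCtl. Its log2 fold change was 0.36 (SE 0.11) and its limma adjusted p, 0.0488, was close to the threshold. The B2m call was lost on leaving out any 1 of 10 of the 12 libraries, the exceptions being the siNrf2 libraries of Py2T LT, with adjusted p between 0.0119 and 0.206.

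On the log2(CPM + 1) scale the transporter and tapasin had the largest changes of the 9 tested members. Tap1 had 9.46 and 8.60 CPM in siNrf2 libraries of MT∆Ecad, against 3.37 and 4.87 CPM in siCtl, which is 0.98 higher on the log2 scale (SE 0.14, limma adjusted p = 0.00251). Tap2, its partner in the transporter, had 42.0 and 47.5 CPM in siNrf2, against 16.6 and 21.7 CPM in siCtl, and rose by 1.19 (SE 0.18, limma adjusted p = 0.00365). Both groups stood well apart for both subunits. Tapbp, which edits the bound peptides, had 411 and 444 CPM in siNrf2, against 174 and 190.1 CPM in siCtl. Its rise of 1.23 (SE 0.14, limma adjusted p = 0.000929) was the largest of the 9 tested members in MT∆Ecad, and its call held in each of the 12 fits that left out a library. The calls of Tap1 and Tap2 held in these 12 fits too. On the 4 libraries of MT∆Ecad alone, Tap1 had a limma adjusted p of 0.0629. Reads of these genes can overlap others: 16.0% of 81-base windows of Tapbp transcripts also occur in transcripts of genes such as Zbtb22, 7.70% of those of Tap2 in other annotated transcripts, and 4.36% of those of Tap1 in Psmb9.

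All 3 inducible proteasome subunits rose in MT∆Ecad. Psmb8, the chymotrypsin-like subunit, had 2.43 and 2.35 CPM in siNrf2 (77 and 81 reads), against 0.648 and 0.886 CPM in siCtl (20 and 24 reads), and rose by 0.94 (SE 0.08, limma adjusted p = 0.000400). Psmb9, which is transcribed from the same stretch as Tap1, had 2.21 and 2.93 CPM in siNrf2, against 0.940 and 0.886 CPM in siCtl, and rose by 0.89 (SE 0.10, limma adjusted p = 0.000806). Psmb8 and Psmb9 were thus low even where they were highest. Of 81-base windows of Psmb9 transcripts 7.86% also occur in transcripts of Tap1, and of those of Psmb8 2.64% in transcripts of Gm20496. Psmb10, the trypsin-like subunit, was expressed in all 3 lines and had 52.0 and 50.6 CPM in siNrf2, against 28.5 and 26.5 CPM in siCtl. Its rise was 0.88 (SE 0.12, limma adjusted p = 0.00199). With a library left out, the rise lay between 0.846 and 1.04 for Psmb8, 0.746 and 1.04 for Psmb9, and 0.824 and 0.927 for Psmb10. Those fits kept the genes chosen on all 12 libraries. Without either siNrf2 library of MT∆Ecad, Psmb8 and Psmb9 would have failed the filter. DESeq2 on the recovered reads gave adjusted p of 0.0574 for Psmb8 and 0.0846 for Psmb9.

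Nlrc5, the class I transactivator, was close to absent. It had 11 reads over the 12 libraries and at most 0.126 CPM, reached in an siNrf2 library of MT∆Ecad. There it had 0.126 and 0.0581 CPM in siNrf2, against 0 and 0.111 CPM in siCtl, so the groups overlapped. All 4 libraries of PyMT-1099 LT were at 0, and no difference was detectable at this depth.

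**Figure D2:**
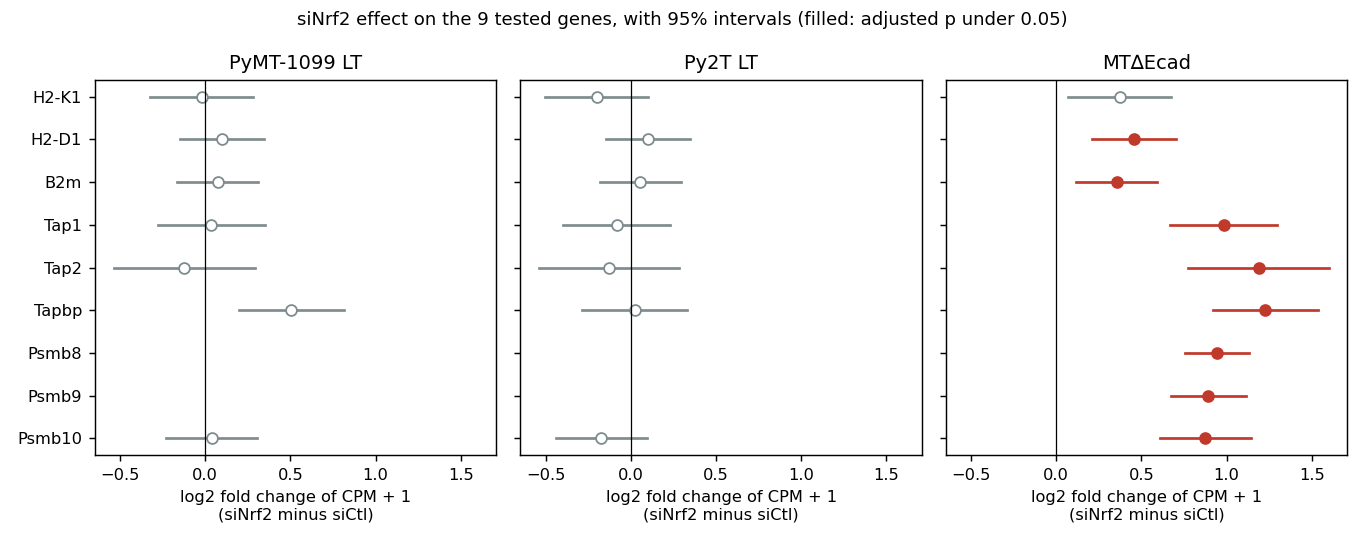
Log2 fold change of CPM + 1 (siNrf2 minus siCtl, horizontal axis) with 95% intervals for the 9 tested genes in each line; filled red points have a limma adjusted p under 0.05. Points in MT∆Ecad run from 0.36 for B2m to 1.23 for Tapbp, and in the other lines Tapbp of PyMT-1099 LT, at 0.50, is farthest from 0; Psmb8 and Psmb9 are left out where no library held more than 3 reads.

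In PyMT-1099 LT, 0 of the 9 tested genes were called in either direction by limma, edgeR or DESeq2, and 1 had an unadjusted limma p under 0.05, while 0.336% of all tested genes were called higher and 0.184% lower. That gene was Tapbp, with 148 and 120.1 CPM in siNrf2, against 99.8 and 87.7 CPM in siCtl. Its libraries did not overlap, and its log2 fold change was 0.50 (SE 0.14, 95% interval 0.20 to 0.81, limma adjusted p = 0.216). With the replicate as a block Tapbp was called in this line (limma adjusted p = 0.0114). That fit called 1125 of all 12502 tested genes in this line, against 65 without the block. Both siNrf2 libraries lay above both siCtl libraries for 3 of the 10 genes, Tapbp, B2m and H2-D1, and for 20% of all tested genes. B2m had 73.3 and 76.8 CPM in siNrf2, against 71.3 and 71.3 CPM in siCtl, and H2-D1 had 1.13 and 1.21 CPM in siNrf2, against 1.08 and 0.971 CPM in siCtl. These gaps were small beside the test's intervals of −0.17 to 0.31 for B2m and −0.15 to 0.35 for H2-D1. The transporter subunits were low and overlapped between the siRNAs. Tap1 had 0.410 and 0.365 CPM in siNrf2, against 0.395 and 0.314 CPM in siCtl, and Tap2 had 0.785 and 0.589 CPM in siNrf2, against 1.18 and 0.543 CPM in siCtl. Psmb8 was at 0 in all 4 libraries, and Psmb9 had 1 and 0 reads in siNrf2, against 2 and 1 reads in siCtl, so neither gave a measurable difference. H2-K1 had 15.3 and 13.6 CPM in siNrf2, against 14.6 and 14.8 CPM in siCtl, with an interval of −0.32 to 0.28. Psmb10 had 21.7 and 19.4 CPM in siNrf2, against 21.5 and 18.6 CPM in siCtl, with an interval of −0.23 to 0.31.

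In Py2T LT, 0 of the 9 were called by limma, edgeR or DESeq2, and 0 had an unadjusted limma p under 0.05, beside 0.0560% of all tested genes called higher and 0.0960% lower. Both siNrf2 libraries lay above both siCtl libraries for 0 of the 10 genes and for 7.63% of all tested genes. Tapbp had 83.8 and 66.6 CPM in siNrf2, against 75.8 and 71.2 CPM in siCtl, so its siCtl libraries lay between its siNrf2 libraries. H2-D1 had 185 and 157 CPM in siNrf2, against 166 and 151 CPM in siCtl, with an interval of the log2 difference of −0.15 to 0.35. H2-K1 had 99.3 and 78.5 CPM in siNrf2, against 104 and 98.9 CPM in siCtl, with an interval of −0.50 to 0.10. For all of these genes the groups overlapped. B2m had 154 and 192 CPM in siNrf2, against 157 and 174 CPM in siCtl. Tap1 had 0.291 and 0.223 CPM in siNrf2, against 0.236 and 0.432 CPM in siCtl, and Tap2 had 1.29 and 1.03 CPM in siNrf2, against 1.45 and 1.27 CPM in siCtl. The transporter subunits thus stayed near the lowest levels of the series with either siRNA. Psmb8 had 2 and 3 reads in siNrf2, against 3 and 1 reads in siCtl, and Psmb9 and Nlrc5 had at most 1 read in any library. Psmb10 had 30.6 and 25.7 CPM in siNrf2, against 33.1 and 30.5 CPM in siCtl, with an interval of −0.44 to 0.09. Missing the threshold does not show that these genes were unaffected, and the intervals give the changes that remain possible.

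Whether the effect of siNrf2 differed between the lines was tested with a limma F test over the 3 line effects. It called 6 of the 9 genes, and 2.18% of all tested genes. They were Psmb8 (limma adjusted p = 0.00932), Psmb9 (0.0154), Psmb10 (0.0294), Tapbp (0.0352), Tap1 (0.0407) and Tap2 (0.0429). Psmb8, Psmb9 and Tap1 had entered the test only through MT∆Ecad libraries, and with no filter Tap1 (limma adjusted p = 0.0503) and Tap2 (0.0678) were not called. With the replicate as a block the F test also called H2-K1 (limma adjusted p = 0.0284) and H2-D1 (0.0383), while B2m was at 0.0614. With that block it called 2377 of all 12502 tested genes, against 273 without it. The Tap2 effect in MT∆Ecad exceeded that in PyMT-1099 LT by 1.31 (95% interval 0.73 to 1.90) and that in Py2T LT by 1.32 (0.73 to 1.90) on the log2 scale. For Tapbp the excess was 0.72 over PyMT-1099 LT (0.29 to 1.16) and 1.20 over Py2T LT (0.77 to 1.64), and for Psmb10 it was 0.84 (0.46 to 1.21) and 1.05 (0.67 to 1.43). For B2m it was 0.28 over PyMT-1099 LT (−0.06 to 0.62) and 0.30 over Py2T LT (−0.04 to 0.64). Psmb8 kept its F test call in all 12 fits that left out a library and Psmb9 in 10 of 12, but Psmb10 and Tapbp in 3 of 12 and Tap1 and Tap2 in 1 of 12. Those fits kept the genes chosen on all 12 libraries, and Psmb8 and Psmb9 would have failed the filter without either siNrf2 library of MT∆Ecad. edgeR on the recovered reads called 0 of the 9, with 4 at an unadjusted p under 0.05. DESeq2, which gave no adjusted p for Psmb8, called 3, Psmb10, Tapbp and Tap2.

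Averaged over the lines with equal weight, 5 of the 9 genes were called higher and 0 lower, while 5.99% of all tested genes were called higher and 6.26% lower. These were Tapbp (log2 fold change 0.59, SE 0.08, limma adjusted p = 0.00384), Psmb8 (0.32), Psmb9 (0.28), Tap1 (0.31) and Psmb10 (0.25). The calls of Psmb10 and Tap1 in this average held in 1 and 2 of the 12 fits that left out a library. With the replicate as a block 8 of the 9 were called, all but H2-K1. edgeR called 1 and DESeq2 called 2. Of all 12502 tested genes, limma called 1532 for this average and 4997 with the block, edgeR 856 and DESeq2 1264. Psmb8, Psmb9 and Tap1 had passed the filter only through MT∆Ecad libraries. In the other lines Psmb8 and Psmb9 had at most 3 reads in any library, so their averages rest on MT∆Ecad. The average over the lines uses the same libraries as the MT∆Ecad effect and adds no independent evidence.

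Each inducible subunit was also set against the constitutive subunit whose place it takes. As a percent of CPM this ratio does not depend on the scaling of a library, whereas the log2 ratios below use CPM + 1 and, where an inducible subunit is at or near 0, are set by the added 1 and the constitutive subunit. The constitutive subunits gave no calls in any line: in MT∆Ecad the log2 fold changes were −0.03 for Psmb5, −0.09 for Psmb6 and −0.03 for Psmb7, all with limma adjusted p of at least 0.653. Psmb10 stood at 35.2% and 36.1% of the Psmb7 CPM in siNrf2 libraries of MT∆Ecad, against 19.7% and 17.8% in siCtl. In PyMT-1099 LT it stood at 9.43% and 9.52% in siNrf2, against 9.77% and 9.37% in siCtl, and in Py2T LT at 16.1% and 13.9%, against 17.7% and 16.8%. Psmb8 had 3.35% and 2.92% of the Psmb5 CPM in siNrf2 libraries of MT∆Ecad, against 0.861% and 1.09% in siCtl, and Psmb9 had 1.66% and 2.22% of the Psmb6 CPM, against 0.667% and 0.626%. Outside MT∆Ecad these last ratios were at most 0.188%. On the log2(CPM + 1) scale the ratios in MT∆Ecad were higher in siNrf2 by 0.98 for Psmb8, 0.98 for Psmb9 and 0.91 for Psmb10. Of the constitutive transcripts, 32.8% of Psmb5 windows and 23.1% of Psmb7 windows are shared with other genes. Averaged over the 3 lines the ratios were higher by 0.32, 0.31 and 0.23, which did not pass an exact permutation test of the siRNA labels within lines (two-sided p = 0.176, 0.231 and 0.315, each 0.315 adjusted over the 3 pairs; 216 arrangements, smallest possible p 0.00926). That smallest p requires the siRNA groups to stand apart in the same direction in all 3 lines. The test therefore cannot decide whether the ratios shifted in 1 line alone. A line with 2 libraries per siRNA cannot be tested by permutation alone.

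**Figure D3:**
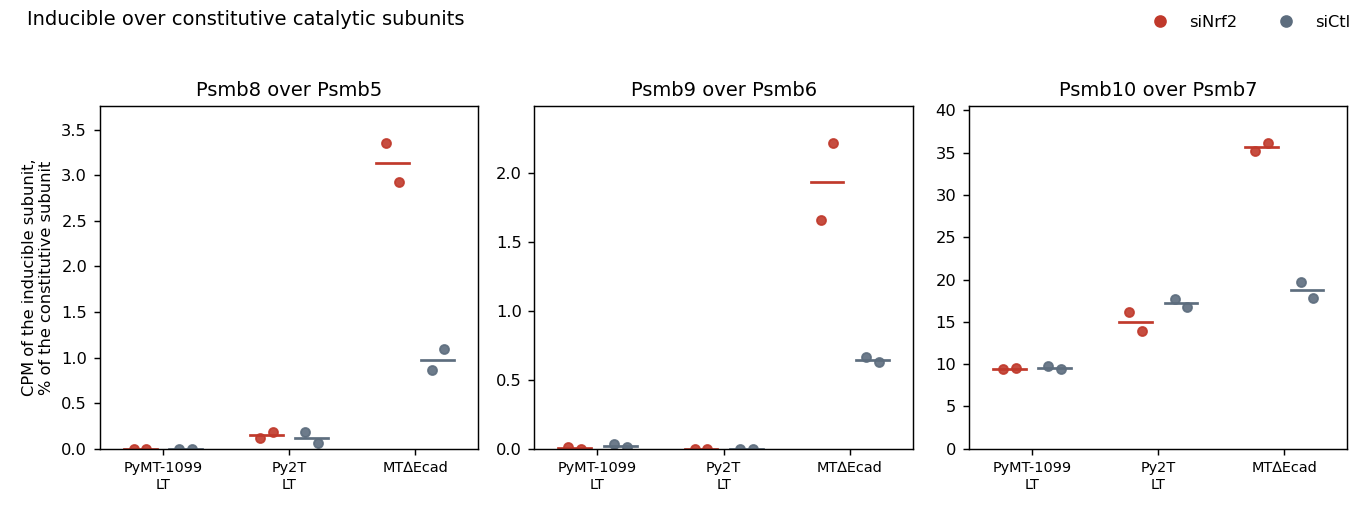
CPM of each inducible subunit as a percent of the CPM of its constitutive counterpart (vertical axis from 0, a separate axis per pair) in the 12 libraries; red siNrf2, grey siCtl, short lines means of 2. The ratio of Psmb10 to Psmb7 is 35.2% and 36.1% in siNrf2 libraries of MT∆Ecad and 19.7% and 17.8% in their siCtl libraries, and the other lines show no such gap.

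The 3 lines differed in class I expression before any knockdown. In siCtl libraries, 9 of the 9 tested genes were higher in MT∆Ecad than in PyMT-1099 LT and 0 lower, beside 27.0% of all tested genes called higher and 30.6% called lower. Against Py2T LT, 8 of the 9 were higher in MT∆Ecad and 0 lower, beside 25.9% and 28.6% of all tested genes. Psmb8, Psmb9 and Tap1 passed the filter only through MT∆Ecad libraries, so their part in these counts follows in part from the filter, and Nlrc5 was not tested. Between the MMTV-PyMT lines, 4 were higher in Py2T LT than in PyMT-1099 LT and 0 lower, beside 28.1% and 27.5%. These comparisons use the same siCtl libraries as the knockdown effects. The lines come from different tumours and in part from different transgenic models, and only MT∆Ecad is named for an E-cadherin deletion. Model, deletion, line and culture therefore cannot be told apart.

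H2-D1 showed the widest gap. It averaged 233 ± 19.3 CPM in MT∆Ecad and 159 ± 10.6 CPM in Py2T LT, but 1.02 ± 0.0742 CPM in PyMT-1099 LT (SD, n = 2 siCtl libraries each). The log2 difference from PyMT-1099 LT was 6.85 for MT∆Ecad and 6.30 for Py2T LT (SE 0.11 each, limma adjusted p of 4.19e-11 and 8.68e-11). H2-K1 followed the same order, with 144 ± 18.8 CPM in MT∆Ecad, 102 ± 3.83 in Py2T LT and 14.7 ± 0.184 in PyMT-1099 LT. The step in H2-K1 between MT∆Ecad and Py2T LT was 0.50 (SE 0.13, limma adjusted p = 0.0110) and was not called without siCtl replicate 2 of either line. Class I heavy chains vary strongly in sequence between mouse strains, the reads were aligned to mm10, which is a C57BL/6J genome, and the labels give no H2 haplotype of the lines. The levels of H2-K1 and H2-D1 are therefore those of reads that matched the reference alleles, and the part of the haplotype in the gap between lines was not tested. Of 81-base windows of H2-D1 transcripts, 5.63% also occur in transcripts of other genes, against 0.551% for H2-K1 and 0% for B2m and Psmb10.

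B2m, whose levels do not share this limit, averaged 218 ± 8.61 CPM in MT∆Ecad, 165 ± 11.5 in Py2T LT and 71.3 ± 0.00815 in PyMT-1099 LT siCtl libraries. All 3 steps were called, with log2 differences of 1.60 between MT∆Ecad and PyMT-1099 LT, 1.20 between Py2T LT and PyMT-1099 LT and 0.39 between MT∆Ecad and Py2T LT. The last was lost without siCtl replicate 1 of MT∆Ecad or of Py2T LT (limma adjusted p up to 0.0814).

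The transporter genes separated MT∆Ecad from both other lines. Tap2 averaged 19.2 ± 3.62 CPM in MT∆Ecad, against 1.36 ± 0.129 in Py2T LT and 0.863 ± 0.453 in PyMT-1099 LT, and Tap1 averaged 4.12 ± 1.06, against 0.334 ± 0.138 and 0.354 ± 0.0568. The MMTV-PyMT lines did not differ beyond their spread in either subunit (log2 difference of Py2T LT from PyMT-1099 LT 0.36 with a 95% interval of −0.05 to 0.77 for Tap2, and −0.03 with −0.34 to 0.29 for Tap1). Tapbp averaged 182 ± 11.6 CPM in MT∆Ecad, 73.5 ± 3.20 in Py2T LT and 93.8 ± 8.56 in PyMT-1099 LT, so that here PyMT-1099 LT was not the lowest line. Tapbp was 0.34 lower in Py2T LT than in PyMT-1099 LT on the log2 scale, which missed the threshold (limma adjusted p = 0.0569).

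Psmb8 averaged 0.767 ± 0.168 CPM in MT∆Ecad siCtl libraries and 0.0641 ± 0.0525 in Py2T LT, where 4 reads were counted in all, and was at 0 in PyMT-1099 LT. Taking 3 reads per library as the limit of a count of 0, it was at least 7.93-fold higher in MT∆Ecad than in PyMT-1099 LT. Psmb9 averaged 0.913 ± 0.0379 CPM in MT∆Ecad and was at 0 in all 4 Py2T LT libraries, which makes it at least 10.0-fold higher in MT∆Ecad, and it had 3 reads in the siCtl libraries of PyMT-1099 LT. Psmb10 kept another order, with 27.5 ± 1.44 CPM in MT∆Ecad, 31.8 ± 1.80 in Py2T LT and 20.03 ± 2.07 in PyMT-1099 LT. Psmb10 did not differ between MT∆Ecad and Py2T LT beyond the spread (log2 difference −0.20, 95% interval −0.47 to 0.07). Its level in PyMT-1099 LT was lower than in Py2T LT (log2 difference of Py2T LT from PyMT-1099 LT 0.64, SE 0.12, limma adjusted p = 0.00124) and than in MT∆Ecad (difference 0.44, limma adjusted p = 0.00998). The call against MT∆Ecad was lost without PyMT-1099 LT siCtl replicate 2 or MT∆Ecad siCtl replicate 1.

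Per kilobase of exon, levels can be compared between genes within a line. In MT∆Ecad siCtl libraries B2m led with 253 CPM per kb, ahead of H2-D1 (111), H2-K1 (87.3) and Tapbp (62.8). Psmb10 (21.0), Tap2 (5.57), Tap1 (1.40), Psmb9 (0.675) and Psmb8 (0.471) followed. The constitutive subunits Psmb5, Psmb6 and Psmb7 stood at 87.1, 177 and 127 CPM per kb in the same libraries. In PyMT-1099 LT siCtl libraries B2m had 82.9 CPM per kb, against 8.88 for H2-K1 and 0.487 for H2-D1, where the heavy chain values again hold only reads that matched the reference alleles, while Tapbp had 32.4 and Tap2 0.251 CPM per kb. In Py2T LT siCtl libraries B2m (192), H2-D1 (75.6) and H2-K1 (61.4) were followed by Tapbp (25.4) and Psmb10 (24.2), with Tap2 at 0.395 and Tap1 at 0.113 CPM per kb.

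Around these genes, 92 genes of 9 lists for neighbouring steps of the pathway were tested; the lists were drawn up with earlier results of these data known. In MT∆Ecad 16 of them were called higher and 4 lower, beside the 8.89% and 8.42% of all tested genes, and list counts such as 1 of 14 lie near or below that share. edgeR called 15 higher and 2 lower and DESeq2 19 higher and 2 lower. In PyMT-1099 LT and Py2T LT limma, edgeR and DESeq2 called 0 of the 92, and 11 and 2 of them had an unadjusted limma p under 0.05. In MT∆Ecad the medians below are log2 fold changes, set against 0 for all tested genes.

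Of the class I chaperones and editing genes, 1 of 6 was called higher and 0 lower in MT∆Ecad, with a median of 0.23. This was Tapbpl, the tapasin-related peptide editor that works outside the transporter complex, with a mean of 32.1 CPM in siNrf2 and 14.2 CPM in siCtl libraries (log2 fold change 1.13, SE 0.13, limma adjusted p = 0.00119). Of the other class I heavy chains and class I-like genes, 5 of 12 were called higher and 1 lower, with a median of 0.51. Fcgrt, the heavy chain of the neonatal Fc receptor, rose by 1.46 (SE 0.19), to 11.3 CPM in siNrf2 against 3.41 CPM in siCtl. H2-T10 rose by 0.73, H2-T23, the mouse Qa-1 molecule recognised by NK cell receptors, by 0.70, and Mr1, which shows microbial metabolites to T cells, by 0.68. H2-T22 (0.65 higher) and Cd1d1, which presents lipids to NKT cells (0.32 lower, at 1.19 CPM in siNrf2 and 1.73 CPM in siCtl), complete the count and were named after their values were seen. Neither edgeR nor DESeq2 called a gene of this list lower. The H2-T genes are close copies of each other, and reads could have been split between them.

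The H2-T genes differed in the size of the step between lines. H2-T23 averaged 12.2 CPM in MT∆Ecad siCtl libraries, 7.03 CPM in Py2T LT and 6.95 CPM in PyMT-1099 LT, and H2-T10 averaged 11.5, 9.41 and 8.28 CPM. H2-T22 averaged 23.1 CPM in MT∆Ecad, 3.61 CPM in Py2T LT and 2.75 CPM in PyMT-1099 LT. As for H2-K1 and H2-D1, these are levels of reads that matched mm10, and the part of the haplotype in the steps was not tested.

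Among the remaining proteasome genes 3 were called. Of 14 constitutive core subunits 0 were called higher and 1 lower, Psma7 (−0.33, SE 0.09), with a median of −0.09, and edgeR and DESeq2 called 0 of the 14, each with 1 at an unadjusted p under 0.05. Of 10 activator and assembly genes 2 were called higher and 0 lower, with a median of −0.10: the cap subunits Psme2 (147 CPM in siNrf2 against 90.8 CPM in siCtl, log2 fold change 0.69, SE 0.11) and Psme1 (144 against 90.3 CPM, 0.66, SE 0.13). Of the 7 cytosolic peptidases that trim proteasome products 0 were called by limma, edgeR or DESeq2, and 2 had an unadjusted limma p under 0.05.

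Of 18 genes for class I transactivation 3 were called higher and 0 lower in MT∆Ecad, with a median of 0.15. Rfx5, a subunit of the complex through which Nlrc5 reaches class I promoters, rose by 0.75 (SE 0.10, limma adjusted p = 0.00179), to 24.2 CPM in siNrf2 against 14.0 CPM in siCtl. Irf1, a transcription factor induced by interferon-gamma that binds IRF cores, had 104 and 124 CPM in siNrf2 libraries of MT∆Ecad, against 66.8 and 84.1 CPM in siCtl (log2 fold change 0.60, SE 0.12, limma adjusted p = 0.0106). In PyMT-1099 LT Irf1 had 67.2 and 66.1 CPM in siNrf2, against 74.4 and 73.7 CPM in siCtl, and in Py2T LT 64.1 and 66.7 CPM, against 69.4 and 74.7 CPM, neither of which was called. The third was Irf7, at 3.62 CPM in siNrf2 and 0.441 CPM in siCtl (log2 fold change 1.69), named after its values were seen.

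Of 13 tested genes for interferons, their receptors and JAK-STAT signalling 3 were called higher and 0 lower, with a median of 0.10. Ifngr2, a chain of the interferon-gamma receptor, rose by 0.71 (SE 0.14), and Stat3, a transcription factor of cytokine signalling, by 0.54 (SE 0.10). The interferon genes of this list were near 0: Ifnb1, Ifnl2 and Ifnl3 had 0 CPM in all 12 libraries and Ifng at most 0.0809 CPM. The list held no interferon-alpha gene.

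Class II presentation was mostly silent, with 2 of 12 genes passing the filter. Ifi30, a lysosomal thiol reductase of antigen processing, rose by 0.53 (SE 0.11), to 46.7 CPM in siNrf2 against 31.9 CPM in siCtl of MT∆Ecad, while the class II chain H2-Aa was at 0 in all 12 libraries. Of 10 tested ligands of T and NK cells 1 was called higher and 2 lower. Lgals9, a galectin that dampens T cells, rose by 0.64 (SE 0.17). The NKG2D ligand genes Raet1e and Raet1d fell by 0.69 and 0.98 on the log2 scale, with Raet1e at 1.47 CPM in siNrf2 and 2.99 CPM in siCtl, and Raet1d was named after its values were seen. Cd274, which encodes PD-L1, averaged 0.430 CPM in siNrf2 and 0.404 CPM in siCtl libraries of MT∆Ecad, with a log2 difference of 0.02 (95% interval −0.34 to 0.37).

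**Figure D4:**
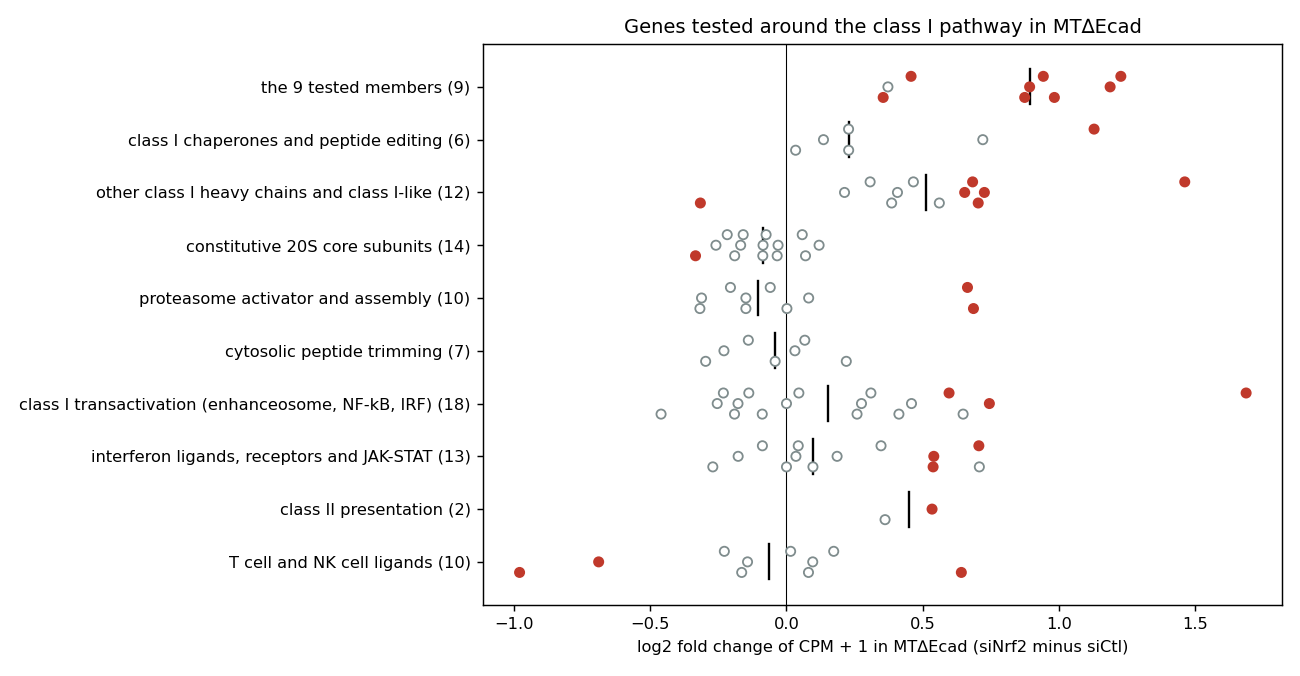
Log2 fold change of CPM + 1 in MT∆Ecad (siNrf2 minus siCtl, horizontal axis) for the 9 tested members and the tested genes of 9 lists around them (number of genes in parentheses); each point is a gene, filled red where the limma adjusted p is under 0.05, and the vertical bar is the median of the list. The members' median is 0.89, that of the 14 constitutive core subunits −0.09. The gene at the members' median is Psmb9, which passed the filter on low values only through the siNrf2 libraries of MT∆Ecad.

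Leukocyte markers moved with the effect in MT∆Ecad at a very low level. The summed CPM of 8 such markers was 5.58 to 6.30 in siNrf2 and 3.77 to 3.89 in siCtl libraries of MT∆Ecad. Cd68, a lysosomal membrane protein of macrophages that other cells also express, made up most of it (5.90 CPM in siNrf2, 3.79 CPM in siCtl) and was called higher (0.52, limma adjusted p = 0.0213), while 6 of the 8, among them Ptprc and Cd3e, were at 0 in both siNrf2 libraries. Of 8 mesenchymal markers 1 was called higher, Fn1 (0.76), and of 7 tested epithelial markers 1 was called lower, Krt14 (−1.42). Of all tested genes 8.89% were called higher and 8.42% lower. The summed CPM of the mesenchymal markers was 16483 to 17381 in siNrf2 and 12025 to 12590 in siCtl libraries of MT∆Ecad. Fn1 made up most of that rise, with means of 9247 CPM in siNrf2 and 5469 CPM in siCtl. Zeb2 went the other way, at 41.3 and 58.5 CPM, and was not called. The epithelial markers summed to 1285 to 1293 and 1125 to 1230 CPM, mostly Krt8 (942 and 822 CPM) and Krt18 (298 and 222 CPM). The part of all these markers in the class I result was not tested.

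The genes outside the list whose profile over the 12 libraries came closest to the median profile of the members were Trim21, Idua, Parp3, Pparg and Psme2b, among 11166 genes with a mean of at least 2 CPM. Likeness was the root mean square distance of log2(CPM + 1), centred on each gene's mean, and ran from 0.165 for Trim21 to 0.201 for Psme2b, where the members themselves lay between 0.234 (Psmb9) and 2.64 (H2-D1). Trim21, a cytosolic antibody receptor, averaged 25.6 CPM in siNrf2 and 13.3 CPM in siCtl libraries of MT∆Ecad and 4.12 to 5.98 CPM in the other 4 groups. Psme2b is a close copy of Psme2, and reads could have been split between them. The measure takes in differences between lines as well as between siRNAs.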

How the data were processed

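Gene expression was measured by stranded total RNA sequencing after rRNA depletion (single reads of 81 bases), per the labels' protocols. Values are CPM as deposited by the authors; the submitters' processing notes name STAR and mm10, while the counting tool, annotation and use of strand are not given in the sources used here. The low values were whole multiples of 1 read, and 100% of values came out whole within 0.01, so reads were recovered for edgeR and DESeq2. Libraries held 27088970 to 37070635 reads. Replicates differed by more than sampling noise.

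Of 24454 IDs, 24374 were matched to RefSeq (GRCm38.p6) and 7 to GENCODE M21. The 12502 genes with at least 1 CPM in at least 2 libraries were fitted on log2(CPM + 1) with limma 3.58.1 (R 4.3.3), all 12 libraries in 1 model of 6 groups, with p-values adjusted by Benjamini-Hochberg over all tested genes (threshold 0.05). edgeR 4.0.16 (quasi-likelihood), DESeq2 1.42.0, other pseudocounts and filters, a replicate block, each line alone and leaving out each library were alternatives. Fits that left out a library or took a line alone kept the genes chosen on all 12 libraries. Libraries of a line with the same replicate number deviated together (correlations of 0.625 for MT∆Ecad, 0.778 for PyMT-1099 LT and 0.846 for Py2T LT), so the numbers were taken to pair the libraries. The scripts were tested on simulated data. From each list the text names up to 4 called genes of largest change with a mean of at least 2 CPM. Some results of the lists and motifs are not reported here. The members and lists were chosen with earlier results of these data known.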

Additional observations from a re-analysis of the deposited data

Results flagged for a closer look

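The effect of siNrf2 differed between the 3 lines, by the limma F test, for 6 genes: Psmb8 (adjusted p = 0.009323), Psmb9 (adjusted p = 0.01545), Psmb10 (adjusted p = 0.02938), Tapbp (adjusted p = 0.03524), Tap1 (adjusted p = 0.04073) and Tap2 (adjusted p = 0.04289). In each case the log2 fold change was highest in MT∆Ecad. Psmb8, Psmb9 and Tap1 passed the filter on low values only through MT∆Ecad libraries. With no such filter Tap1 (limma F test adjusted p = 0.0503) and Tap2 (0.0678) were not called, and edgeR called none of these genes. Psmb8 and Psmb9 had at most 3 reads in every library of the other lines, so their difference between lines is also one between a detected gene and one near 0.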

How the results depend on the processing

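In MT∆Ecad the count of members called higher was 8 and lay between 6 and 9 when a library was left out. Averaged over the lines it was 5, and became 3 with a pseudocount of 0.25, 3 with no filter on low values, 3 with a filter at 5 CPM, 8 with the replicate block, 1 with edgeR and 2 with DESeq2, and lay between 3 and 6 when a library was left out. The F test called 6, and 3 with a pseudocount of 0.25, 0 with edgeR and 3 with DESeq2, and between 1 and 4 when a library was left out. The replicate block also raised the count in PyMT-1099 LT to 1, and moved no count of members by over 1.5 times other than this one and the average over the lines. Over all genes it called 5324 for MT∆Ecad, 1125 for PyMT-1099 LT and 127 for Py2T LT, against 2164, 65 and 19 without it. For the average over the lines it called 4997, against 1532, and for the F test 2377, against 273. In siCtl libraries, the count of members lower in Py2T LT than in PyMT-1099 LT was 0 to 1 when a library was left out. The cause of these shifts was not tested. With DESeq2 the mean effect of Psmb9, which had 0 reads in all Py2T LT libraries, was −0.0263.

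Some single-gene effects that were not called changed sign when a library was left out. In PyMT-1099 LT they ranged from −0.1005 to 0.05735 for H2-K1, −0.007801 to 0.07786 for Tap1, −0.3746 to 0.1268 for Tap2 and −0.06138 to 0.1393 for Psmb10. In Py2T LT they ranged from −0.01448 to 0.2167 for H2-D1, −0.104 to 0.2159 for B2m, −0.1882 to 0.02354 for Tap1 and −0.1401 to 0.1879 for Tapbp. The mean effect of H2-K1 ranged from −0.005329 to 0.1064, and the Tap1 level of Py2T LT minus PyMT-1099 LT from −0.1312 to 0.08058.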
